A study of Mus musculus with 3 samples.

Results

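Imprinted genes are expressed mainly or only from the copy inherited from 1 parent, under control regions whose DNA methylation differs between the 2 parental copies. Many act on growth of the fetus and the placenta, with paternally expressed genes such as Igf2 usually promoting growth and maternally expressed genes such as H19, Cdkn1c and Grb10 usually restraining it. Several are high in embryonic muscle and in myoblasts and fall in most tissues after birth. The 10 genes described here, out of 22068 in the files, were Mest, Igf2, Peg3, Dlk1, Plagl1 and Ndn, which are paternally expressed, and H19, Meg3, Cdkn1c and Grb10, which are maternally expressed in most tissues (Grb10 is paternal in neurons). They were chosen by name after Mest had been seen to be higher with Linc-RAM knockdown than in the control, and the question was whether other imprinted genes followed across the 3 libraries. The Mest ratio of knockdown to control is therefore a description of why the genes were picked. All 10 symbols were found.

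The cells were C2C12, a mouse myoblast line that forms multinucleated myotubes when serum is lowered. Linc-RAM is a long noncoding RNA of skeletal muscle. Stable lines were made with lentivirus and selected with blasticidin, and carried an empty vector (control), Linc-RAM (overexpression) or a short hairpin RNA against Linc-RAM (knockdown). All 3 lines were grown in 10% FBS, moved to 2% horse serum and collected after 12 h, and 1 library of polyadenylated RNA was sequenced from each. There were thus no replicates and no p-values, and the 2 comparisons with the control share its single library. Whether a line was a clone or a pool of infected cells is not given in the sources used here. The Linc-RAM gene itself, 2310015B20Rik, gave a single read, with overexpression (1.07 RPKM), and was listed at 0 in the other libraries, so it does not check the labels.

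Values are RPKM, read counts scaled to gene length and to the reads of the library, and 3 values in a row are always given in the order control, overexpression, knockdown. The RPKM values imply totals of 5130481, 2105513 and 1878146 reads, so that the altered lines were read at 41.0% and 36.6% of the control depth. A ratio of 2 libraries is given with its 95% interval (exact, Clopper-Pearson) from the recovered reads, which covers counting error only and not the spread between cultures. A gene was compared where its mean over the 3 libraries was at least 1 RPKM, and called higher or lower at 2-fold. Myoblast markers were present in all 3 libraries, and none of the 6 (Myod1, Myf5, Des, Cdh15, Itga7, Chrna1) was listed at 0. Markers of other cell types were mixed. Of the fibroblast markers, Lum and Thy1 were listed at 0 throughout while the collagen gene Col3a1 was at 163, 167 and 148 RPKM and Col1a1 at 78.2, 32.05 and 65.7 RPKM. Of the neuronal markers, Rbfox3 and Snap25 were listed at 0 while Tubb3 was at 26.2, 92.6 and 19.8 RPKM. Adipoq, Plin1 and Ptprc, of fat and blood, were listed at 0. Pparg, of fat, was at 0.688, 1.44 and 1.34 RPKM and Cd68, of blood, at 0.967, 0.471 and 1.58 RPKM, from 7 reads or fewer.

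H19 and Mest each carry a microRNA, and these sequences are shown because they are the best known products of the loci beside the long transcripts. mir-675 is cut from H19 itself and is known in muscle for favouring differentiation, and mir-335 lies in an intron of Mest. The mature sequences below are those of RefSeq on GRCm38.p6, 5′ to 3′, with the seed in capitals.
miR-675-5p: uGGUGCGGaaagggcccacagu
miR-675-3p: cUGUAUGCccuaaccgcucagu
miR-335-5p: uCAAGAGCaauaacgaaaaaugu
miR-335-3p: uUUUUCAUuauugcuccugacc
The 4 seeds differ from each other. Mir675, Mir335 and the Igf2 microRNA gene Mir483 were listed at 0 in all 3 libraries, as were the other 42 listed precursor genes of the Dlk1-Meg3 locus. A library of long polyadenylated RNA gives no measure of mature microRNAs.

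The levels of the 10 genes ran from H19, among the most abundant RNAs of the cells, to Dlk1 and Meg3, listed at 0. Only 5 of the 10, H19, Peg3, Mest, Ndn and Cdkn1c, had a mean of at least 1 RPKM. Cdkn1c reached that mean only through the knockdown library, so it had to differ there to be compared at all.

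**Figure D1:**
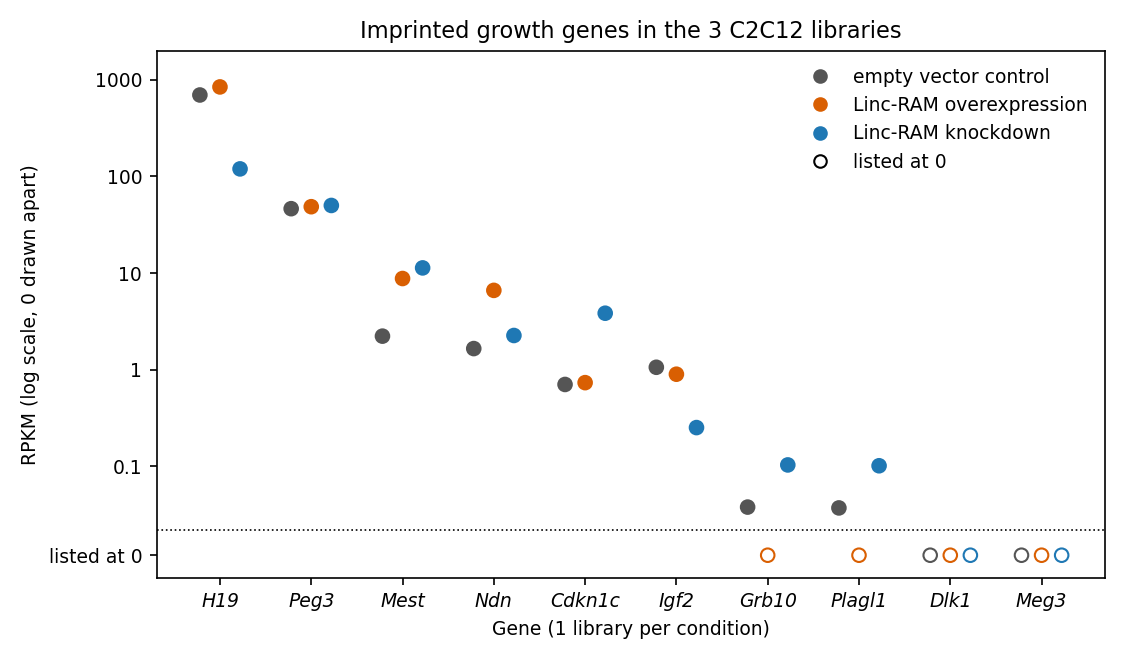
RPKM of the 10 imprinted genes (log y axis) in the control (grey), overexpression (orange) and knockdown (blue) libraries, 1 point per library, with open points below the dotted line for values listed at 0. H19 stood at 697 and 845 RPKM in the first 2 libraries and at 119.7 RPKM with knockdown, while the 3 points of Peg3 lay together near 50 RPKM.

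H19, a maternally expressed noncoding RNA that shares enhancers and a control region with Igf2, was the most abundant of the 10 genes by far. It lies on the reverse strand of chromosome 7 of mm9 from 149761434 to 149764048. H19 was at 697 RPKM in the control, 845 RPKM with overexpression and 119.7 RPKM with knockdown. The control and overexpression libraries were close, and the knockdown library was far below both. H19 ranked 16th of all genes by RPKM in the control and 13th with overexpression, but 131st with knockdown. It took 0.182%, 0.221% and 0.0313% of the reads. In RNA from whole cultures, fewer cells with H19 and less H19 per cell cannot be told apart, and this holds for every gene here. The ratio of knockdown to control was 0.172 (0.158 to 0.187, from 588 and 9349 reads), and 45 of the 10165 genes compared had a lower ratio. The ratio of overexpression to control was 1.21 (1.17 to 1.26), beyond counting error but well short of 2-fold. Set directly against each other, the overexpression library was 7.05-fold above knockdown (6.47 to 7.70), with 39 of 10146 genes at a higher ratio.

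Igf2, the fetal growth factor that promotes myoblast growth and differentiation through the type 1 IGF receptor, lies 88.7 kb from H19 between annotated starts and is expressed from the opposite parental copy. It spans 149836673 to 149852721 of chromosome 7 on the reverse strand. Igf2 was at 1.06 RPKM in the control, 0.897 RPKM with overexpression and 0.251 RPKM with knockdown, or 23, 8 and 2 reads. Its mean of 0.736 RPKM was below the level for comparison. The knockdown library was lowest for Igf2 as it was for H19, with a ratio to the control of 0.238 (0.0271 to 0.961) that rests on 2 reads. No difference of overexpression from the control was detectable for Igf2 at this depth (0.848, 0.328 to 1.96). RPKM of H19 exceeded that of Igf2 by 658-fold, 942-fold and 476-fold. The annotation holds the antisense gene Igf2as over Igf2, and with no strand setting known the reads of the pair cannot be told apart.

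Cdkn1c encodes p57, the cyclin-dependent kinase inhibitor that takes part in the exit of myoblasts from the cell cycle, and belongs to the next cluster on chromosome 7 (150644255 to 150646955, reverse strand). Cdkn1c was at 0.703 RPKM in the control, 0.734 RPKM with overexpression and 3.84 RPKM with knockdown. The knockdown library alone was high. The counts behind these levels were small, at 7, 3 and 14 reads. The ratio of knockdown to control was 5.46 (2.06 to 16.0), with 18 of 10165 genes at a higher ratio, and that of overexpression to control was 1.04 (0.174 to 4.57). Overexpression against knockdown gave 0.191 (0.0352 to 0.685).

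Mest, which encodes a protein of the alpha/beta hydrolase fold and is a classic paternally expressed gene of mesoderm, was higher in both altered lines. It spans 30673547 to 30698457 on the forward strand of chromosome 6. Mest was at 2.22 RPKM in the control, 8.78 RPKM with overexpression and 11.3 RPKM with knockdown, from 29, 47 and 54 reads. The control library was the low one, and the other 2 lay near each other. The ratios to the control were 3.95 with overexpression (2.43 to 6.51) and 5.09 with knockdown (3.18 to 8.28), with 78 and 21 of 10165 genes at a higher ratio. Overexpression against knockdown gave 0.776 for Mest (0.514 to 1.17), an interval that includes 1 and reaches down to nearly 2-fold. Both ratios to the control share the 29 control reads of Mest. Copg2 overlaps Mest in the annotation on the other strand and stood at 2.56, 3.80 and 3.24 RPKM. With no strand setting known, reads from the overlap of Mest and Copg2 cannot be told apart.

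Ndn, which encodes necdin, a MAGE family protein that binds growth regulators in neurons and muscle cells, was high in the overexpression library. It lies in the Prader-Willi cluster of chromosome 7, from 69493163 to 69494814 on the forward strand. Ndn was at 1.65 RPKM in the control, 6.62 RPKM with overexpression and 2.26 RPKM with knockdown, from 14, 23 and 7 reads. Its ratio of overexpression to control was 4.003 (1.97 to 8.41), with 75 of 10165 genes at a higher ratio. No difference of knockdown from control was detectable for Ndn (1.37, 0.467 to 3.62). The overexpression library was 2.93-fold above knockdown (1.22 to 8.09).

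Peg3, a large zinc finger protein that marks muscle stem cells and other progenitors, was the second most abundant of the genes and differed little between libraries. It lies on chromosome 7 from 6656603 to 6683132 on the reverse strand. Peg3 was at 46.4 RPKM in the control, 48.6 RPKM with overexpression and 50.1 RPKM with knockdown. The ratios to the control were 1.05 (0.957 to 1.15) and 1.08 (0.983 to 1.19), and both intervals include 1. Read against Peg3 in the same library, the RPKM of H19 was 15.0 times as high in the control, 17.4 times with overexpression and 2.39 times with knockdown.

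The other 4 genes were at or near 0. Grb10, an adaptor that restrains signalling of the insulin and IGF receptors, was at 0.0378 RPKM in the control and 0.103 RPKM with knockdown, 1 read in each, and listed at 0 with overexpression. Plagl1, a zinc finger factor that regulates other imprinted genes, had the same reads, at 0.0370 RPKM in the control and 0.101 RPKM with knockdown. No ratio is given for these genes. Dlk1, a membrane protein with EGF repeats known from fetal muscle and fat precursors, and Meg3, the noncoding RNA of the same cluster on chromosome 12, were listed at 0 in every library. Among 83 cytosolic ribosomal protein symbols, 9 were also listed at 0 in all 3 libraries, Rpl21 and Rps23 among them, so an exact 0 in these files need not mean that a gene is silent. A count of 0 allows up to 3 reads of a library.

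**Figure D2:**
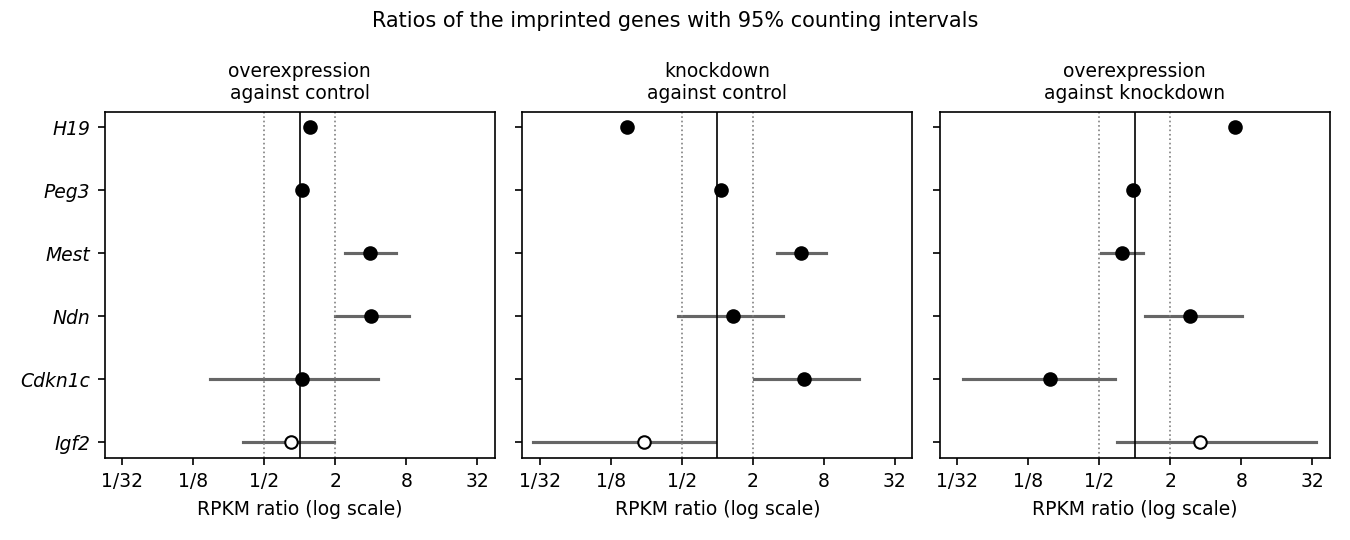
RPKM ratios (log x axis) of the 6 genes with more than 3 reads in a library, for the 3 comparisons, with 95% counting intervals as bars (hidden by the points for H19 and Peg3) and dotted lines at 2-fold. The open points are Igf2, which was below the level for comparison, and Mest lies to the right of 2-fold in both comparisons with the control.

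Counted together, 2 of the 5 genes compared were at least 2-fold higher with overexpression, Mest and Ndn, and none was lower, against a background of 7.11% of 10165 genes called, 3.64% higher and 3.47% lower. With knockdown, Mest and Cdkn1c were at least 2-fold higher and H19 was lower, where 7.58% of all genes were called, 3.38% higher and 4.19% lower. Mest was the reason for the choice and Cdkn1c was compared only because it was high with knockdown, so nothing is read from their calls with knockdown or from that of Cdkn1c in the direct comparison. The call of Mest with overexpression rests on the same low control value, so nothing is read from it either. Between overexpression and knockdown, H19 and Ndn were at least 2-fold higher and Cdkn1c was lower, where 10.9% of 10146 genes were called, 5.83% higher and 5.11% lower. The median log2 ratio of the 5 genes was 0.28 with overexpression and 0.45 with knockdown, beside 0.00 and −0.02 over all genes compared. Nothing is read from either median, since Mest is in both and Cdkn1c was compared only through the knockdown library. Apart from Mest and Cdkn1c, the genes compared did not share 1 pattern. Ndn was higher with overexpression, H19 was lower with knockdown, and Peg3 was near the control in both. As a description only, Mest was higher in both altered lines and Cdkn1c with knockdown.

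A wider list of imprinted genes of the mouse was read in the same way. Of 70 listed for their known imprinting, 68 were in the files, 24 of these were listed at 0 in all 3 libraries, and 29 could be compared. With overexpression 2 were at least 2-fold higher, Gatm and Dcn, and 1 was lower, Peg10, beside the 7.11% called over all genes. With knockdown none of the 29 was 2-fold from the control, and they lay between 0.515 (Peg13) and 1.66 (Sgce) of it, beside the 7.58% called over all genes. Their median log2 ratio was 0.04 with overexpression and −0.14 with knockdown. In the direct comparison Gatm, Dcn and Cobl were higher with overexpression and Peg10 was lower, beside the 10.9% called over all genes. Counts this small on 29 genes are not set apart from those shares.

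**Figure D3:**
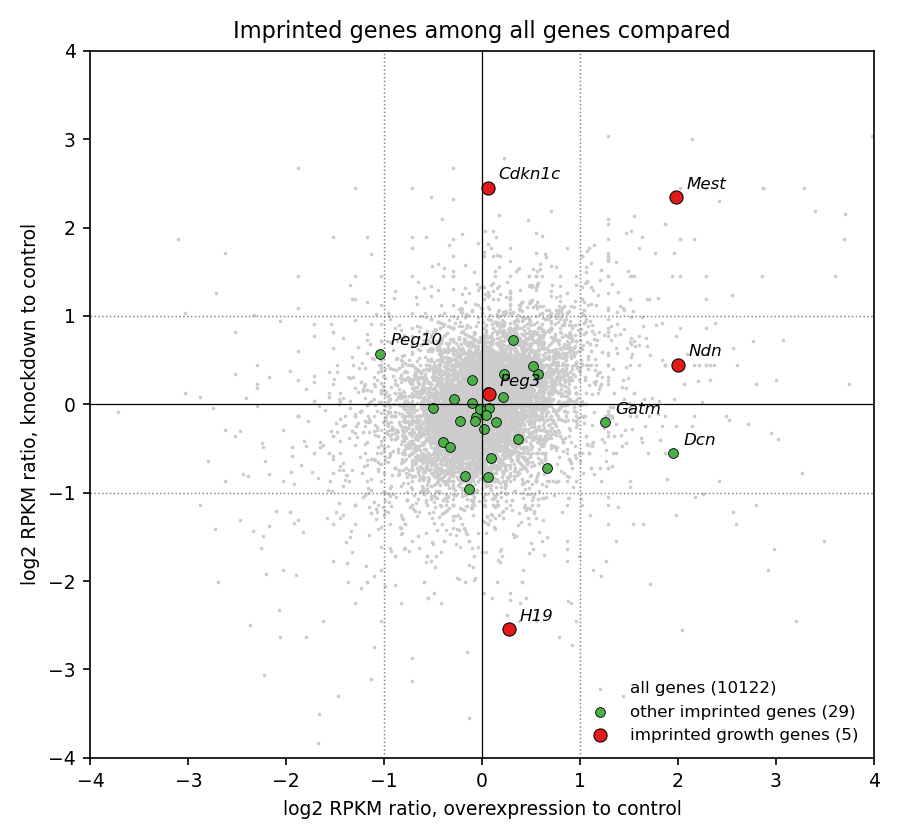
Log2 RPKM ratios to the control with overexpression (x axis) and knockdown (y axis) for 10122 genes compared with values above 0 in all libraries (grey), with the 29 other imprinted genes in green and the 5 imprinted growth genes in red (9 genes lie beyond the axes, dotted lines at 2-fold). Mest lies to the upper right, Cdkn1c at the top, H19 at the bottom and Ndn to the right, while most green points lie inside the 2-fold lines.

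Peg10, a paternally expressed gene derived from a retrotransposon and needed for the placenta, was at 22.5 RPKM in the control, 10.9 RPKM with overexpression and 33.4 RPKM with knockdown. Its ratios were 0.485 (0.405 to 0.578) and 1.49 (1.32 to 1.68), on opposite sides of the control, and 0.327 directly (0.270 to 0.394). Sgce, which encodes epsilon-sarcoglycan and is the neighbour of Peg10, had ratios of 1.24 (0.743 to 2.03) and 1.66 (1.03 to 2.65). Gatm, an enzyme of creatine synthesis, stood at 7.03, 16.7 and 6.10 RPKM. The overexpression library was the high one for Gatm, at 2.38-fold of the control (1.74 to 3.26). Dcn (decorin) was at 1.12, 4.33 and 0.766 RPKM, and Cobl at 1.87, 2.96 and 1.14 RPKM. Dcn and Cobl fell below the level set for naming and were named after their values were seen. Peg10 was among the 5 most abundant of the list, and the other 4 were within 2-fold of the control. Cd81, a tetraspanin, had ratios of 1.10 and 0.870, the G protein subunit gene Gnas 0.986 and 0.965, and Commd1 0.928 and 1.01, while the receptor kinase gene Axl was at 0.795 (0.720 to 0.877) and 0.716 (0.643 to 0.797).

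The genes around H19, Mest and Cdkn1c were read for the same libraries. With 7.11% and 7.58% of all genes called, groups of this size would hold few calls or none, and the counts are given as a description. Of 8 other genes compared that start within 500 kb of H19, none was 2-fold from the control with knockdown (0.546 to 1.37, median 0.861), and 1 was higher with overexpression, Dusp8 at 2.31-fold. Dusp8 was at 0.809, 1.87 and 0.442 RPKM and reached the level for comparison only through the overexpression library. Mrpl23 and Lsp1, the genes compared that lie nearest to H19 with known protein products, were at 0.942 and 0.852 of the control with knockdown. Of 6 neighbours of Mest none was 2-fold from the control in either line, with ratios of 0.920 to 1.49 with overexpression and 0.722 to 1.27 with knockdown. Copg2, which overlaps Mest, was the highest of the 6 in both, with ratios of 1.49 and 1.27. Of 10 neighbours of Cdkn1c none was 2-fold from the control, and their median was 0.938 with overexpression and 0.751 with knockdown. Cdkn1c was compared only because it was high with knockdown, so nothing is read from its contrast with them. Kcnq1, Slc22a18 and Phlda2, imprinted genes of the Cdkn1c cluster, were listed at 0. No neighbour of Ndn reached a mean of 1 RPKM. Peg12 of the same cluster was below that level, at 1.26, 0.540 and 0.807 RPKM from 17, 3 and 4 reads, and no difference was detectable (overexpression to control 0.430, 0.0807 to 1.49).

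**Figure D4:**
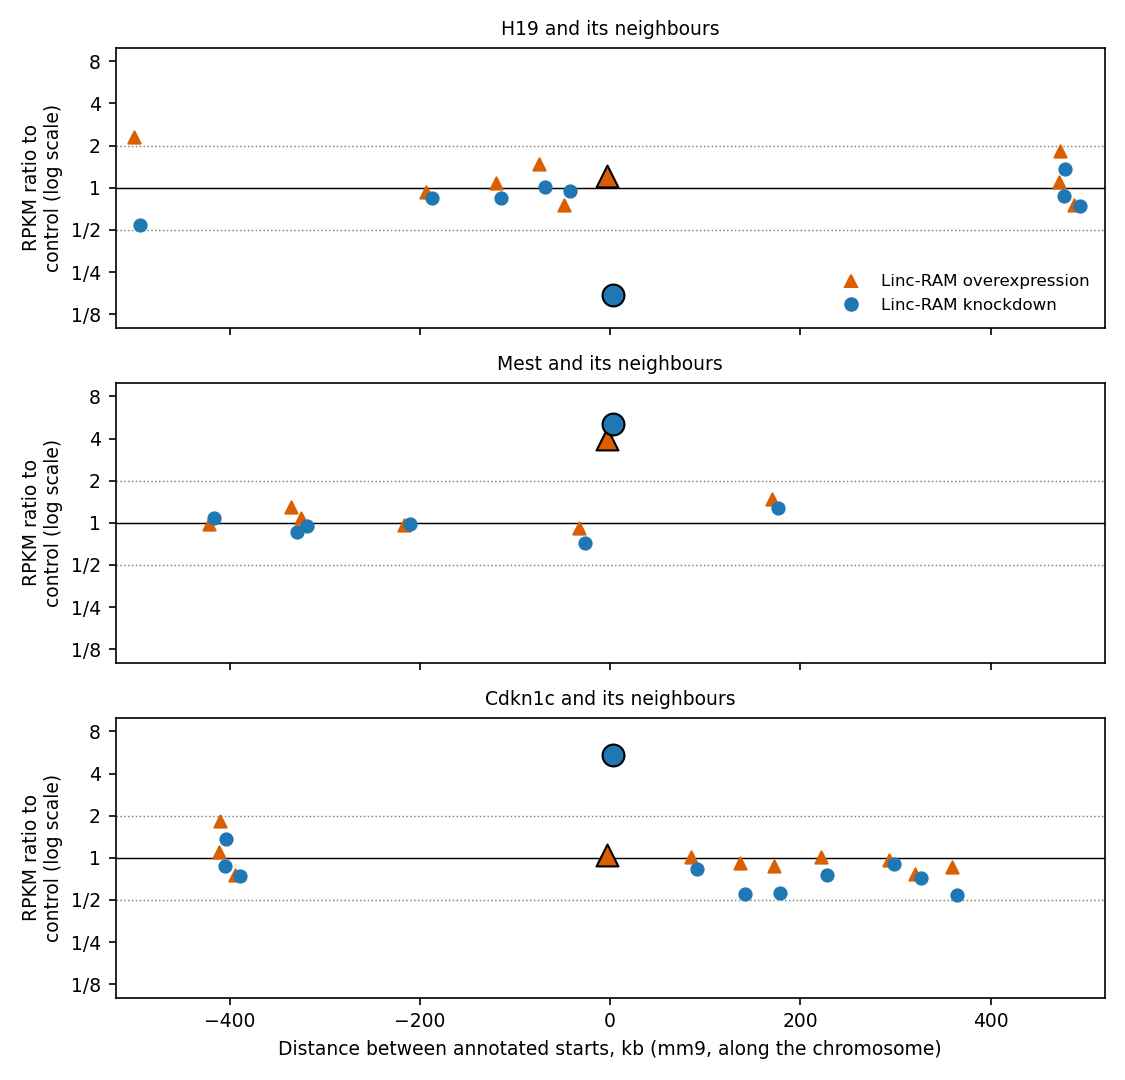
RPKM ratios to the control (log y axis) of genes with a mean of at least 1 RPKM that start within 500 kb of H19, Mest and Cdkn1c (x axis, distance between annotated starts along the chromosome), for overexpression (orange triangles) and knockdown (blue circles), with the named gene as the large symbols at 0. H19 with knockdown, Mest in both lines and Cdkn1c with knockdown lie beyond 2-fold (dotted), and of the small symbols Dusp8 at the far left of the H19 panel passes it.

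The bases before the starts of Mest and Ndn are shown because both genes were higher with overexpression, and CANNTG is the E-box to which MyoD and related muscle factors are known to bind. They are the 250 bases before the start in RefSeq on GRCm38.p6, 5′ to 3′, with each CANNTG in capitals. 8 of the 10 genes had an entry.
Mest, first start, chr6:30733256-30733505, forward strand: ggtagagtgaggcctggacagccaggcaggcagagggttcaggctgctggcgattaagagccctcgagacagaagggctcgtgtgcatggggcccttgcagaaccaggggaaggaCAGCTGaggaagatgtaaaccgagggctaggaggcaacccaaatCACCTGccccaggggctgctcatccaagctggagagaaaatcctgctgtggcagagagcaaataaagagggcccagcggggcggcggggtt
Mest, second start, chr6:30737800-30738049, forward strand: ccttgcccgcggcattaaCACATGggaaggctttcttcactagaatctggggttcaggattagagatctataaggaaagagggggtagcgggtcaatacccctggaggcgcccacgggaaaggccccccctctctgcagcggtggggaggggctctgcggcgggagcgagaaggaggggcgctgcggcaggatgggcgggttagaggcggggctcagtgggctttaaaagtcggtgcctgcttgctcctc
Ndn, chr7:62348027-62348276, forward strand: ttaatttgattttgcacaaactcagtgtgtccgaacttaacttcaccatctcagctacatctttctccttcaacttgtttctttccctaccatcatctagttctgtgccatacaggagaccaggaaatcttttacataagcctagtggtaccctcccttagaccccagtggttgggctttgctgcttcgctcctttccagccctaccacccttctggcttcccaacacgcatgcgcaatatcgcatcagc
CANNTG reads the same on both strands in its fixed letters, and 66.2% of 32536 windows of this length hold at least 1. The first Mest window holds 2, 1 of them CAGCTG (found in 13.1% of windows), the second holds 1 and the Ndn window holds none. Over all 15 windows of the 8 genes, 7 held the motif. Such a match is a description of letters and says nothing of binding.

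The gene nearest to Mest in the plane of both log2 ratios, among 5894 genes with a mean of at least 5 RPKM, was Msln (mesothelin), at 2.77-fold with overexpression and 3.84-fold with knockdown, a distance of 0.65. Next came Gpx3, a secreted glutathione peroxidase (2.94-fold and 2.73-fold), Aldh3b1, an aldehyde dehydrogenase (2.11-fold and 3.32-fold), Enho (3.46-fold and 2.30-fold) and Npnt, an integrin ligand (3.22-fold and 2.28-fold). The likeness rests on 3 libraries only. Both ratios share the control library, so a low value there raises both, and the knockdown ratio of Mest was the reason for its choice. The list is a description.

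Genes that act with Igf2 and Grb10 were mostly near the control. The list held 9 genes of the IGF receptors, their substrates and the proteins that bind Igf2 mRNA, and 6 were compared. None was 2-fold from the control with overexpression, beside 7.11% called over all genes. With knockdown 1 was lower, a count not set apart from the 7.58% of all genes called (4.19% lower). That gene was Igf2bp2, which binds Igf2 mRNA, at 6.35 RPKM in the control, 11.6 RPKM with overexpression and 2.05 RPKM with knockdown, ratios of 1.82 (1.38 to 2.40) and 0.323 (0.175 to 0.553). Igf2bp2 was lowest with knockdown and highest with overexpression, an order also seen for H19, Igf2r, Gatm, Des, Myod1 and others. Irs1, the most abundant of the list, was at 28.5, 20.9 and 29.3 RPKM. The receptor genes Igf1r and Insr had ratios of 0.850 and 1.04 with overexpression and 0.806 and 0.982 with knockdown. Igf2r, which clears IGF2 and is itself imprinted, had ratios of 1.29 (0.989 to 1.67) and 0.762 (0.542 to 1.06).

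Of 14 compared among 18 factors that keep or read imprints, none was 2-fold from the control with overexpression, beside 7.11% called over all genes. With knockdown 1 was lower, Dnmt3a, a share close to the 7.58% called over all genes (4.19% lower). This de novo DNA methyltransferase was at 2.22 RPKM in the control, 1.49 RPKM with overexpression and 0.811 RPKM with knockdown, a knockdown ratio of 0.366 (0.198 to 0.630), and was named after its values were seen. Zfp57, which guards methylated imprints, was at 8.70, 8.24 and 8.41 RPKM. Trim28, its partner and the most abundant of the list, was at 35.2, 27.8 and 24.3 RPKM, with a knockdown ratio of 0.690 (0.527 to 0.893). Dnmt1, which copies methylation at replication, had ratios of 1.25 (0.936 to 1.66) and 0.757 (0.522 to 1.08).

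Muscle genes differed between the same libraries. Summed over 6 myoblast markers, RPKM was 388, 589 and 227, most of it from Des (291, 386 and 145 RPKM). With knockdown Des, Cdh15, Myod1 and Myf5 were at 0.499, 0.480, 0.584 and 0.896 of the control, and Itga7 and Chrna1 at 1.05 and 1.15. Myod1 stood at 16.7, 34.1 and 9.76 RPKM. Of the 6 markers of differentiated muscle, 2 (Myh3 and Ckm) were listed at 0 throughout, and the sum was 15.3, 38.8 and 14.9 RPKM. Myog, the factor that drives differentiation, was at 3.95, 22.1 and 3.598 RPKM. Tnnt2 differed little, at 9.97, 9.55 and 9.82 RPKM. Acta1 was at 1.09, 3.98 and 1.49 RPKM from 8, 12 and 4 reads. Mylpf was at 0.258, 3.15 and 0 RPKM from 1, 5 and 0 reads, and reached the level for comparison only through the overexpression library. Over the 6 fibroblast markers the sum was 246, 206 and 221 RPKM, with Dcn counted in both that list and the imprinted one. Of the 4 neuronal markers, Rbfox3 and Snap25 were listed at 0 and the sum, nearly all from Tubb3, was 26.5, 92.7 and 19.8 RPKM. The 4 adipocyte markers summed to 0.688, 2.18 and 2.17 RPKM and the 4 of blood and endothelium to 0.967, 0.615 and 1.72 RPKM. The part of any of these in the levels of H19, Ndn, Mest and Cdkn1c was not tested.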

How the data were processed

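Each of the 3 C2C12 lines gave 1 polyadenylated RNA library. The authors mapped reads to mm9 with TopHat (1.4.1 in the submitters' processing notes), obtained the coverage of each gene with DEGSeq and deposited RPKM values. Their gene annotation and how multiply mapped reads were treated were not given in the sources used here. RPKM ratios were taken with no pseudocount. A gene with 1 read has an RPKM fixed by its length and the read total, so each total was read as the value shared by most pairs of RPKM and GENCODE transcript length (251 to 272 pairs, median 1 elsewhere). Reads per gene were taken at a GENCODE length where every library came out whole (23.6% of the 10172 genes at 1 RPKM or more on average) or else at the smallest whole length from 200 nt (76.2%), and are a lower estimate. The read totals, recovered reads, ratios and counting intervals were checked on simulated data with lengths drawn from GENCODE, the intervals on known counts. That check did not cover reads taken at the smallest whole length, as for H19, Peg3, Cdkn1c, Ndn and Igf2. The other steps were not checked in this way. The members and lists were chosen with earlier results of these data known. Named were all members, other imprinted genes past 2-fold at a mean of at least 5 RPKM, the 5 most abundant of them, the 5 genes nearest to Mest, and by the same level the genes of the other lists; further genes of these lists and neighbours were named after their values were seen. Positions are GENCODE on mm9. Alternatives were added constants, other filters, scalings and thresholds. Intervals came from scipy 1.17.1, figures from matplotlib 3.10.9 and tables from pandas 2.3.3, under Python 3.11.15.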

Additional observations from a re-analysis of the deposited data

How the results depend on the processing

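The filter on low values and the threshold both moved the counts of called genes. With a mean of at least 5 RPKM, 3 of the 10 genes remained and 1 was called with overexpression (Mest), 1 between overexpression and knockdown (H19), and 2 of the other imprinted genes in that direct comparison. Over all genes at that level, 2.93% were called with overexpression and 5.39% directly. Mest, at 2.22 RPKM in the control, reached that mean only through the altered lines, so nothing is read from its call there. With no filter the calls among the 8 genes above 0 became 4 with overexpression, 6 with knockdown and 6 in the direct comparison, several from single reads, and those of the other imprinted genes became 13, 8 and 8. The latter were out of 43, 43 and 38 genes. Over all genes the shares called also rose without the filter, to 19.6%, 20.1% and 18.8%. With at least 1 RPKM in the denominator library, 5 of 31 other imprinted genes were called with overexpression. Over all genes 6.93% were called with overexpression and 7.38% with knockdown at that setting. Under that filter the 3 genes called with knockdown were Mest, H19 and Igf2, the call of Cdkn1c being lost, and Nnat took the place of Dcn in the direct comparison. At 1.5-fold, 6 of 29 other imprinted genes were called with knockdown and 9 in the direct comparison, beside 22.7% and 26.9% over all genes. The median log2 ratio of these 8 genes without the filter was 0.065 with overexpression, 0.95 with knockdown and −0.20 directly, and with a mean of at least 5 RPKM it was 0.11 with knockdown. That of the other imprinted genes was −0.069 with overexpression at that level. These shifts come from the genes each filter lets in. The other 61 counts and medians were within the limits set (1.5-fold for counts), which does not say that the genes were the same. No log2 ratio of a single gene changed sign under added constants or scaling, but with 1 RPKM added those of low genes shrank, Igf2 with knockdown to −0.72 and directly to 0.6002 (both then under 2-fold) and Cdkn1c with knockdown to 1.51. Another recovery of the read totals was not run, since each total had a single best value. Cdkn1c, Ndn and Igf2 rest on 2 to 23 reads per library, which limits their ratios. No paired analysis was possible because each condition has 1 library.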
